A study of Homo sapiens with 6 samples.

Results

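The genes described here are 44 interferon-stimulated genes and nucleic acid sensors, taken by symbol out of 23710 gene symbols counted in K562 cells. Their list was chosen with earlier results of these data known. All 44 symbols were present in the count tables. K562 is an established human line from a chronic myelogenous leukaemia, and its cells were at passages 13 to 16. In the treated group 3 samples received 20 µM 3FM-dC plus 2 mM THU for 24 h, and in the control group 3 samples received DMSO, the solvent of both compounds, for the same time. 3FM-dC and THU were only given together, so their effects cannot be told apart. The series title presents 3FM-dC as an activator of TET2, an enzyme that oxidises methylated cytosine in DNA, and the study asked how 3FM-dC alters gene expression. The labels do not say whether the replicates are separate cultures, and p-values here reflect no more than the spread among these samples, which may be technical.

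Cells detect foreign or misplaced nucleic acids with sensors. DDX58 (also called RIG-I) and IFIH1 (MDA5) bind double-stranded RNA in the cytoplasm and signal through MAVS on mitochondria, while TMEM173 (STING) passes on the signal of cytosolic DNA. Both routes activate IRF3 and IRF7, which switch on type I interferon genes. Secreted interferon then acts through its receptor, the kinases JAK1 and TYK2, and a complex that includes STAT2 and IRF9, which binds the interferon-stimulated response element (ISRE) in the promoters of antiviral genes. Drugs that lower DNA methylation are known to turn on such genes in some cancer cells.

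Each library held between 18408826 and 22750278 reads in genes. Levels are given as CPM, read counts scaled to a common depth on library sizes scaled by TMM factors, and a gene with 3 counts in a library has from 0.136 to 0.168 CPM. Markers of the K562 line, among them GATA1 and the embryonic and fetal globins, had counts in all 6 libraries for 10 of 10 genes, and their summed level was 7332 to 7520 CPM in DMSO and 3769 to 3939 CPM in treated libraries. Of the 8 lymphocyte markers 3 had counts in all 6 libraries, and the list summed to 8.16 to 9.22 CPM in DMSO and 10.5 to 11.9 CPM in treated libraries, with CD2, MS4A1 and CD8A at 0 counts throughout. The 8 monocyte and macrophage markers summed to 50.9 to 57.9 and 47.3 to 53.9 CPM, most of it CD68 and LYZ, with MARCO at 0. The 5 plasmacytoid dendritic cell markers summed to 38.9 to 43.3 and 39.5 to 45.3 CPM, nearly all of it TCF4, with IL3RA at 0. The 8 fibroblast and endothelial markers summed to 10.4 to 13.9 and 7.29 to 11.6 CPM, with LUM and CDH5 at 0. Of the 3 tested lymphocyte markers 2 rose, NKG7 among them, each to under 3 CPM. NKG7 reached the count minimum for testing in all treated but not all DMSO libraries, a pattern for which 77.4% of 704 tested genes rose. Of the 10 K562 markers 9 fell and 1 rose, beside 32.7% and 33.8% of all tested genes. Their median log2 fold change was -0.98. TCF4, the 1 tested plasmacytoid dendritic cell marker, did not pass the test. Among monocyte and macrophage markers LYZ rose from 13.6 to 24.1 CPM while CD68 fell from 39.9 to 26.1 CPM. Among fibroblast and endothelial markers COL1A1 rose from 0.361 to 1.28 CPM while COL1A2 and PECAM1 fell. Like NKG7, COL1A1 reached the count minimum in all treated but not all DMSO libraries. The part of any of these marker levels in the results was not tested. In bulk samples, more RNA per cell and more cells with a transcript cannot be told apart.

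Many of the members had few or no counts in both groups. OASL, HERC5, IFI44 and IFI44L had no count in any of the 6 libraries, so a level of up to 0.168 CPM could have been missed. Another 12 members had counts but did not pass the filter on low counts, and 28 were tested. A DMSO library had at least 1 count for 32 or 33 of the 44 members, and a treated library for 36 or 37. The summed level of all 44 members was 1494 to 1531 CPM in DMSO and 1437 to 1457 CPM in treated libraries.

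Per kilobase of annotated exon, the DMSO level was highest for IFITM1, at 430.2 CPM per kb, followed by BST2 at 87.4, ADAR at 38.6, APOBEC3C at 37.6 and TMEM173 at 30.1 CPM per kb. The transcription factors IRF1, IRF7 and IRF9 stood at 1.36, 2.26 and 2.47 CPM per kb. The inducible antiviral genes OAS3 and IFIT3 stood at 0.104 and 0.321 CPM per kb. In treated libraries OAS3 reached 0.826 CPM per kb, where IFITM1 had 326 CPM per kb.

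**Figure D1:**
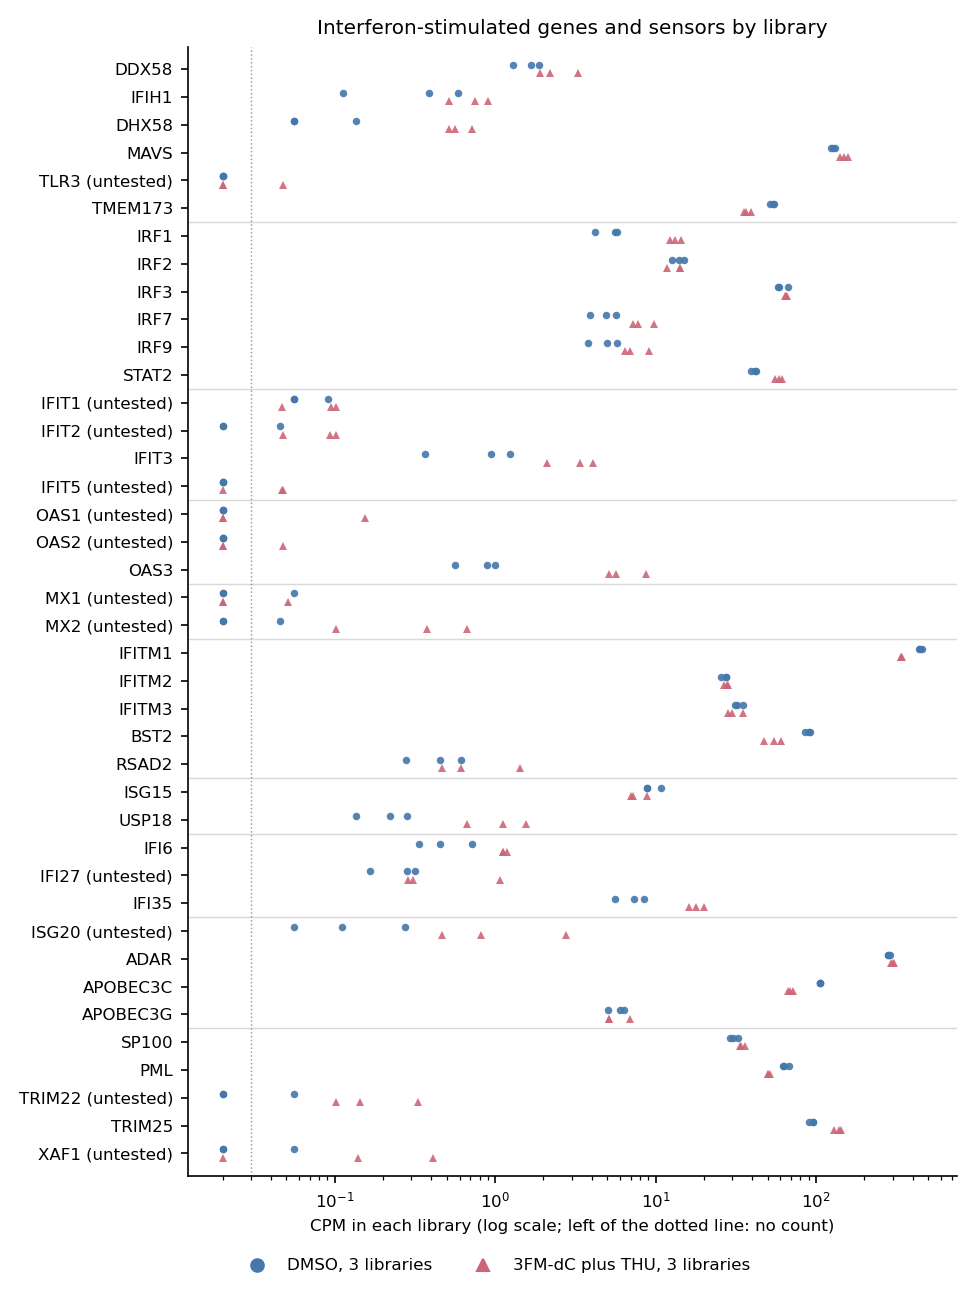
CPM of each detected member in each library, on a logarithmic axis, for DMSO (circles) and 3FM-dC plus THU (triangles), with members grouped by role and grey lines between roles. Points left of the dotted line are libraries with no count, and members marked as untested did not pass the count filter. OAS3, IRF1 and IFI35 lie to the right in treated libraries, while BST2, APOBEC3C and IFITM1 lie to the left.

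Treated cells had more transcripts of IRF1, OAS3 and IFI35 and fewer of BST2, APOBEC3C, TMEM173 and IFITM1. Tested by edgeR (quasi-likelihood, p adjusted by Benjamini-Hochberg over all 12339 tested genes), 14 of the 28 members were higher in treated cells, 5 were lower and 9 did not pass. That is 67.9% of the tested members against 66.4% of all tested genes, a share near the background. By direction, 50% of tested members rose against 33.8% of all tested genes, and 17.9% fell against 32.7%. Over all genes 4167 rose and 4031 fell, and scaling by total counts gave 5059 against 3185, with 16 members higher and 5 lower. The CPM values of the groups did not overlap for 21 of the 28 tested members, against 70% of all tested genes.

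The median log2 fold change was 0.38 for the 28 tested members and 0.01 for all tested genes. Of the 28, IFIH1, DHX58, IFIT3, USP18 and IFI6 reached the count minimum in all treated but not in all DMSO libraries, a pattern for which 77.4% of 704 tested genes rose. Another 22 members reached it in all 6 libraries. Of these 22, 10 rose, 5 fell and 7 did not pass, and their median was 0.09, beside -0.01 for the 11319 genes of that kind, of which 32% rose and 34.9% fell.

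**Figure D2:**
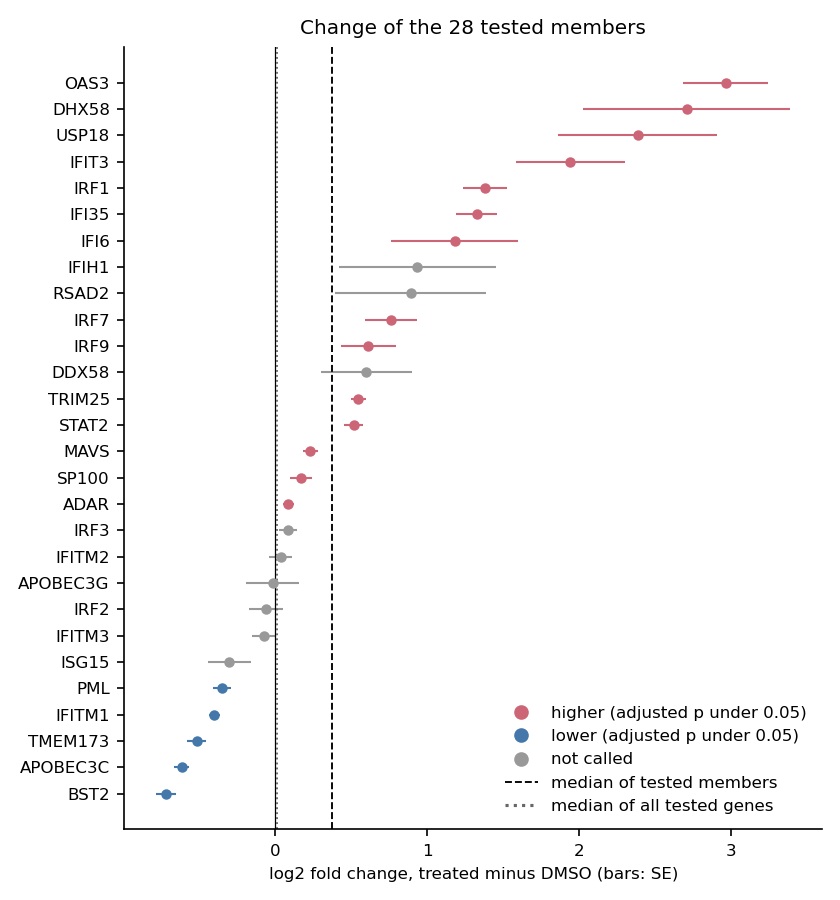
Log2 fold change of each of the 28 tested members, treated minus DMSO, with its SE as a bar and colour for the call by edgeR's adjusted p. OAS3 stands at 2.96 at the top and BST2 at -0.72 at the bottom, and the dashed and dotted lines mark the medians of the tested members (0.38) and of all tested genes (0.01).

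Among the sensors, the adaptor of DNA sensing fell and that of RNA sensing rose slightly. TMEM173 had 51.7, 54.5 and 53.9 CPM in DMSO and 39.5, 36.7 and 35.8 CPM in treated libraries. Every treated library lay below every DMSO library, and the log2 fold change was -0.52 (SE 0.06, edgeR adjusted p = 3.77e-08). MAVS, the mitochondrial adaptor, had 124, 132 and 127 CPM in DMSO and 159, 141 and 149 CPM in treated libraries. The groups did not overlap and MAVS rose by 0.23 (SE 0.05, edgeR adjusted p = 7.02e-05), a size that did not pass against a minimum fold change of 1.2 (edgeR adjusted p = 0.731).

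The RNA sensors themselves were weakly expressed. DDX58 had 1.89, 1.29 and 1.68 CPM in DMSO and 1.90, 2.19 and 3.28 CPM in treated libraries. The highest DMSO library lay just under the lowest treated one, and DDX58 did not pass (log2 fold change 0.60, SE 0.30, edgeR adjusted p = 0.0756), although it did with total counts (0.0411) and without treated replicate 1 (0.0436). IFIH1 had 7, 2 and 13 counts in DMSO and 10, 19 and 16 in treated libraries, which overlap (edgeR adjusted p = 0.111). DHX58 (LGP2), a regulator of both sensors, had 1, 1 and 3 counts in DMSO and 11, 15 and 11 in treated libraries. It rose by 2.71 on the log2 scale (SE 0.68, edgeR adjusted p = 0.000948) while staying under 1 CPM in every library. DHX58 reached the count minimum in all treated but not all DMSO libraries. TLR3, an endosomal sensor of double-stranded RNA, had 1 count in all.

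Of the 6 transcription factors, all tested, 4 rose and 0 fell, beside 33.8% and 32.7% of all tested genes. IRF1, which drives many antiviral and antigen presentation genes, had 5.71, 5.61 and 4.18 CPM in DMSO and 12.3, 14.5 and 13.2 CPM in treated libraries. The lowest treated value was well above the highest DMSO value, and IRF1 rose 2.58-fold (log2 fold change 1.38, SE 0.14, edgeR adjusted p = 1.70e-09). IRF7, the factor that amplifies interferon production, had 4.94, 3.92 and 5.67 CPM in DMSO and 7.22, 9.81 and 7.73 CPM in treated libraries. IRF7 thus rose without overlap, by 0.76 (SE 0.17, edgeR adjusted p = 0.000288).

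Of the complex that carries the interferon signal to the ISRE, STAT2 had 42.0, 39.2 and 41.6 CPM in DMSO and 55.3, 61.5 and 59.1 CPM in treated libraries. Its rise was 0.52 on the log2 scale (SE 0.06, edgeR adjusted p = 2.41e-08), again with no overlap. IRF9 had 4.99, 3.81 and 5.77 CPM in DMSO and 6.40, 9.15 and 6.89 CPM in treated libraries, and rose by 0.61 (SE 0.18, edgeR adjusted p = 0.00370). IRF3, which is activated by phosphorylation and made at steady levels in most cells, had 61.1 ± 4.91 and 65.0 ± 1.05 CPM (SD, n = 3 per group, as for all such values) and did not pass (edgeR adjusted p = 0.198), but passed with total counts (0.00908) and without DMSO replicate 3 (0.0304). IRF2, often a repressor at the ISRE, did not pass either (log2 fold change -0.06, edgeR adjusted p = 0.657).

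Promoter windows from RefSeq (GRCh38.p14, 250 bases before to 50 after the gene start, reference sequence and not that of K562) were matched for 29 of the 44 members. The core of the ISRE was searched as 2 copies of GAAA with 2 bases of any kind between them, on both strands and with overlapping matches counted, and was found in 17 of the 29 windows against 3.57% of 35116 windows of the same length. It was found in 3 of 11 windows of members that rose, in both windows of members that fell, in 3 of 5 of members tested without passing, and in 9 of 11 of members that were not tested. The second interferon motif, GAS, searched as TTC and GAA with 3 bases of any kind between them, was found in 8 of the 29 windows against 7.66% of all windows. A match describes letters and is no evidence of binding. The windows held a median of 9 CpG dinucleotides, against 14 over all windows. The median was 14 for members that rose (11 windows) and 20 for members tested without passing (5 windows). It was 2.5 for members that fell (2 windows, IFITM1 and BST2) and 5 for members that were not tested (11 windows). No window was matched for TMEM173, APOBEC3C and PML, which also fell, so these medians do not compare risers with fallers.

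**Figure D3:**
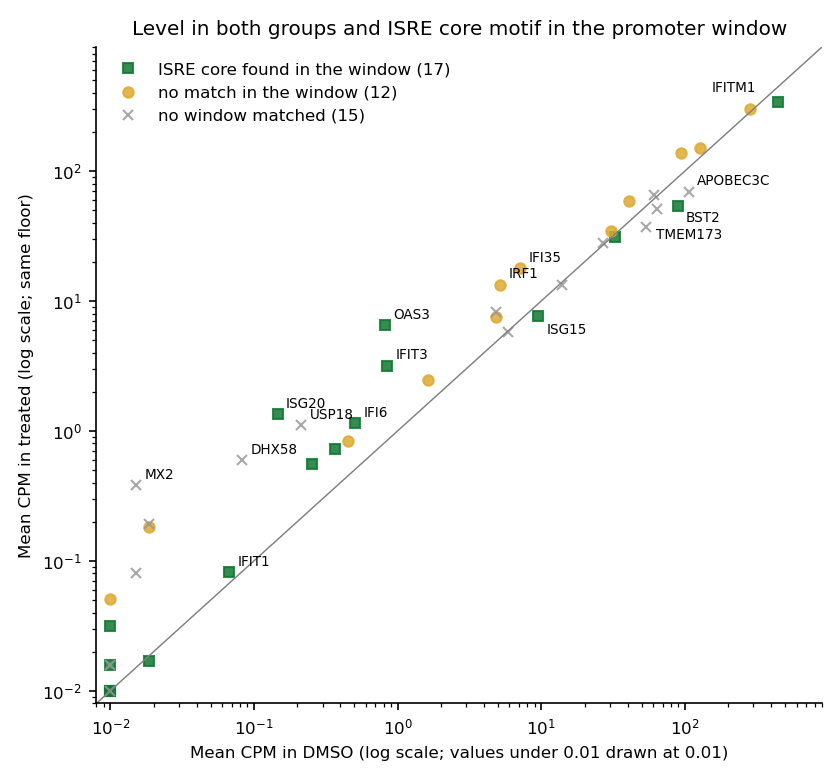
Mean CPM of each of the 44 members in DMSO (horizontal) and in treated libraries (vertical), both on logarithmic axes with values under 0.01 drawn at 0.01, by whether the promoter window holds the ISRE core. Green squares hold the core, yellow circles do not, and crosses had no window. The line marks equal levels. Members with the ISRE core appear among the risers (OAS3, IFIT3), among the fallers (BST2, IFITM1) and at the floor.

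The windows that follow are of members that rose and hold the ISRE core, shown because they carry the largest rises with that motif, with the core in capitals on either strand. OAS3 lies at chr12:112938319-112938473, plus strand, IFIT3 at chr10:89327829-89327896, plus strand, and IFI6 at chr1:27672264-27672360, minus strand, each read 5′ to 3′ along its gene. The first match lies 143, 156 and 156 bases before the gene start in OAS3, IFIT3 and IFI6.
OAS3: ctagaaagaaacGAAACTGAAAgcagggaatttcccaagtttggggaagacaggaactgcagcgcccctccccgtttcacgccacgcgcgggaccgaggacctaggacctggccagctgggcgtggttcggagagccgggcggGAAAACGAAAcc
IFIT3: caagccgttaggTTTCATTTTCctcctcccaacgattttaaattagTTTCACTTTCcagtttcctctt
IFI6: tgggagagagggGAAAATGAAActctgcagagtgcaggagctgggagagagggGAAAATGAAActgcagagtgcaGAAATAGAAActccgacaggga

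OAS3 makes the 2-5A messenger of antiviral defence when it binds long double-stranded RNA. It had 0.888, 0.561 and 0.999 CPM in DMSO and 5.69, 8.67 and 5.11 CPM in treated libraries. All 3 treated libraries lay several-fold above every DMSO library, and OAS3 rose 7.95-fold (log2 fold change 2.96, SE 0.28, edgeR adjusted p = 1.96e-10). The rest of its family had almost no counts. On chromosome 12 the order is OAS1, OAS3, OAS2, and OAS1 had 3 counts and OAS2 1 count in all 6 libraries together, all in treated ones, while OASL had 0.

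IFIT3 belongs to a family of proteins that bind viral RNA and block its translation. It had 0.943, 1.23 and 0.363 CPM in DMSO and 2.10, 4.05 and 3.38 CPM in treated libraries. The groups did not overlap and IFIT3 rose 3.75-fold (log2 fold change 1.94, SE 0.36, edgeR adjusted p = 2.44e-05). IFIT3 reached the count minimum in all treated but not all DMSO libraries, a pattern for which 77.4% of 704 tested genes rose. On chromosome 10, in the order IFIT2, IFIT3, IFIT1, IFIT5, IFIT2 had 1 count in all DMSO and 5 in all treated libraries, IFIT1 4 and 5, and IFIT5 0 and 2. IFIT3 was thus the one tested member of its family, as OAS3 was of the OAS genes.

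Of the IFI genes, IFI35, a partner of the signalling protein NMI, had 5.55, 7.29 and 8.49 CPM in DMSO and 19.9, 17.9 and 16.1 CPM in treated libraries. It rose 2.53-fold without overlap (log2 fold change 1.33, SE 0.13, edgeR adjusted p = 7.35e-10). IFI6, a small membrane protein, had 13, 6 and 10 counts in DMSO and 22, 25 and 24 in treated libraries. Its rise of 1.18 (SE 0.42, edgeR adjusted p = 0.0143) did not pass without DMSO replicate 2 (0.0732) or without DMSO replicate 3 (0.0570). IFI6 reached the count minimum in all treated but not all DMSO libraries. IFI27 had 3, 5 and 7 counts in DMSO and 6, 6 and 23 in treated libraries, where 1 treated library stood apart from the others.

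The ISG15 pathway attaches the ubiquitin-like protein ISG15 to other proteins. ISG15 itself had 8.88, 10.8 and 8.85 CPM in DMSO and 7.07, 8.81 and 7.22 CPM in treated libraries. These values lay lower in treated libraries by a narrow margin and did not pass (log2 fold change -0.30, SE 0.14, edgeR adjusted p = 0.0630), but did without treated replicate 2 (0.0196). USP18, which removes ISG15 and dampens receptor signalling, had 4, 5 and 3 counts in DMSO and 22, 14 and 33 in treated libraries. USP18 rose by 2.39 (SE 0.52, edgeR adjusted p = 0.000220), so the remover rose while its substrate did not pass. USP18 reached the count minimum in all treated but not all DMSO libraries. UBA7 and UBE2L6, the enzymes that activate and transfer ISG15, rose by 1.95 and 1.28 on the log2 scale, UBA7 to 1.62 ± 0.197 CPM. Like USP18, UBA7 reached the count minimum in all treated but not all DMSO libraries. The ligase HERC5 had no counts.

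Of the 5 restriction factors that act at membranes, all tested, 2 fell and 3 did not pass. Of all tested genes 32.7% fell. IFITM1, which blocks fusion of viruses with cell membranes, had 438, 447 and 458 CPM in DMSO and 338, 337 and 344 CPM in treated libraries. The groups were far apart for their small spread, and IFITM1 fell by 0.40 on the log2 scale (SE 0.03, edgeR adjusted p = 3.49e-11). Its relatives IFITM2 (27.0 ± 1.09 and 27.7 ± 0.994 CPM) and IFITM3 (32.7 ± 1.97 and 31.1 ± 3.56 CPM) did not pass (edgeR adjusted p = 0.693 and 0.438). In the order IFITM2, IFITM1, IFITM3 these genes lie together on chromosome 11, and as close copies they can share reads, which makes their separate values uncertain.

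BST2 (tetherin), which holds budding virus particles at the cell surface, had 84.9, 90.6 and 91.6 CPM in DMSO and 60.4, 47.3 and 54.8 CPM in treated libraries. BST2 thus had the largest fall among the 28 tested members, by 0.72 on the log2 scale (SE 0.06, edgeR adjusted p = 9.24e-11), with no overlap. RSAD2 (viperin) had 5, 11 and 10 counts in DMSO and 12, 30 and 10 in treated libraries, which overlap (edgeR adjusted p = 0.115).

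The ISRE core was also present in promoters of members that fell, did not pass or had few or no counts, and 5 of these are shown for contrast with those of the risers. IFITM1 lies at chr11:313988-314043, plus strand, BST2 at chr19:17405733-17405772, minus strand, ISG15 at chr1:1013372-1013411, plus strand, IFIT1 at chr10:89392495-89392541, plus strand, and IFI44L at chr1:78620272-78620396, plus strand. In BST2 and ISG15 the capitals join 2 overlapping matches. The first match lies 40, 130, 113, 116 and 164 bases before the gene start, in the same order.
IFITM1: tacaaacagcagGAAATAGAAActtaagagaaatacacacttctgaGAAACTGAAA
BST2: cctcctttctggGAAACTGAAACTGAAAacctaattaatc
ISG15: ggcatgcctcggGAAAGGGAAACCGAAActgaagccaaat
IFIT1: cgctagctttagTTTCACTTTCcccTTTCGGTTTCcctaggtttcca
IFI44L: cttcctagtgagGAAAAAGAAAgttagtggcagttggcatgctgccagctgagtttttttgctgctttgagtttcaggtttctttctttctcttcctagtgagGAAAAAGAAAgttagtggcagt

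Among enzymes that edit or degrade nucleic acids, ADAR, which converts adenosine to inosine in double-stranded RNA, had 281, 291 and 279.7 CPM in DMSO and 302, 294 and 308 CPM in treated libraries. Its call as higher (log2 fold change 0.09, SE 0.04, edgeR adjusted p = 0.0378) was the smallest change called among the members and was lost under 7 of 13 alternative settings, among them leaving out DMSO replicate 1 (0.138). APOBEC3C, a cytidine deaminase that acts on single-stranded DNA, had 106 CPM in each DMSO library and 71.6, 67.2 and 69.1 CPM in treated ones. APOBEC3C fell by 0.61 (SE 0.05, edgeR adjusted p = 6.40e-12), far beyond the spread of either group. The related APOBEC3G had 5.82 ± 0.669 and 5.73 ± 1.06 CPM and did not pass (edgeR adjusted p = 0.940). The exonuclease ISG20 had 2, 1 and 6 counts in DMSO and 16, 58 and 10 in treated libraries, with 1 treated library far above the others. It did not pass the count filter, and without that filter its adjusted p by edgeR was 2.80e-07, in a fit that called 4528 of 17781 tested genes higher.

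TRIM25, the ubiquitin ligase that helps activate DDX58, had 95.2, 96.2 and 90.7 CPM in DMSO and 129, 139.9 and 143 CPM in treated libraries. TRIM25 rose 1.46-fold without overlap (log2 fold change 0.55, SE 0.05, edgeR adjusted p = 5.96e-11). PML, the scaffold of nuclear bodies, went the other way, from 64.4 ± 2.82 to 50.6 ± 0.997 CPM (log2 fold change -0.35, edgeR adjusted p = 4.53e-06). SP100, a second component of these bodies, had 30.7 ± 1.77 and 34.6 ± 1.40 CPM, and its call as higher (0.17, edgeR adjusted p = 0.0380) was lost with DESeq2 (0.0723) and under 6 further settings. TRIM22 had 1 count in DMSO and 12 in treated libraries in all, and XAF1, a pro-apoptotic interferon target, 1 and 11. The GTPase MX2 had 0, 0 and 1 counts in DMSO and 2, 14 and 8 in treated libraries, and its relative MX1 1 and 1 in all. Of these, MX2 and TRIM22 passed without the count filter (edgeR adjusted p = 0.00108 and 0.0400) and XAF1 did not (0.0519). That fit called 4528 of 17781 tested genes higher, and these members had almost no counts in DMSO.

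Among tested members, as among all tested genes, the share that rose was lower and the share that fell was higher at higher levels. The share of risers under 5 CPM depends on the count filter, since it takes in genes that reached the count minimum in treated libraries only. Of the 8 tested members with a mean under 5 CPM, OAS3, DHX58, USP18, IFIT3 and IFI6 rose and the other 3 did not pass, where 40.7% of all tested genes rose and 8.93% fell (49.6% called). Of these 5 risers DHX58, USP18, IFIT3 and IFI6 reached the count minimum in all treated but not all DMSO libraries, so that this share says little about the members. Among genes of this level that reached it in all 6 libraries 32.4% rose, and only OAS3 and DDX58 are members of that kind, of which OAS3 rose. Of 12 members between 5 and 50 CPM, 6 rose and 1 fell, where 37.4% of all tested genes rose and 27.1% fell (64.5% called). Of 8 members above 50 CPM, 3 rose and 4 fell, where 26.3% of all tested genes rose and 51.1% fell (77.4% called). At least 2-fold rises were found for 7 of the 28 tested members, against 10.2% of all tested genes, and each of the 7 had a treated mean under 20 CPM. Without the same 4 genes, 3 of the 22 members that reached the count minimum in all 6 libraries rose at least 2-fold, against 6.4% of all such genes. None of the 5 members that fell by edgeR did so 2-fold, against 2.46% of all tested genes.

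**Figure D4:**
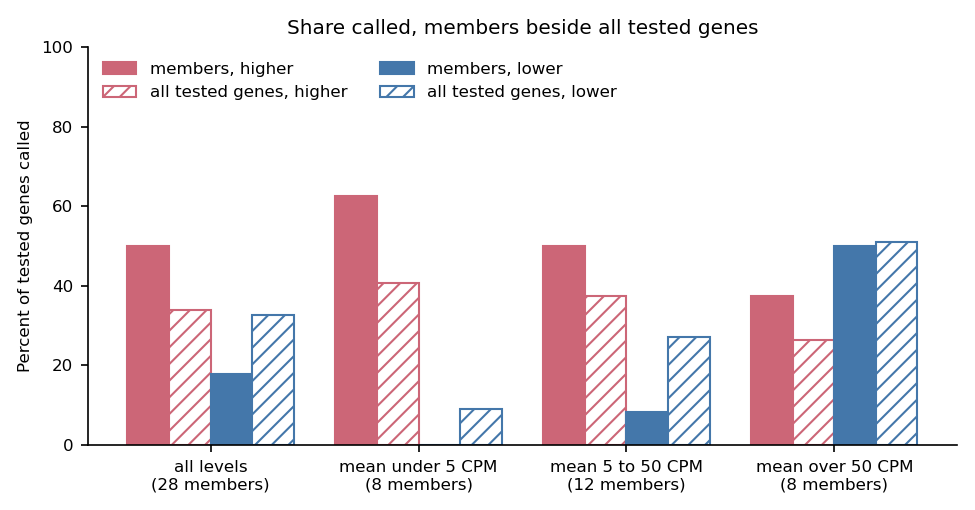
Percent of tested genes called higher (red) or lower (blue) by edgeR, for members (filled bars) and all tested genes (hatched bars), over all levels and in 3 ranges of mean CPM. Members under 5 CPM were called higher in 62.5% against 40.7% of all tested genes, with 4 of their 5 risers tested only through the treated libraries, while above 50 CPM 50% of members and 51.1% of all tested genes were lower.

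The other genes of the pathway came from lists of 148 symbols, also chosen with earlier results of these data known, of which 97 were tested. By edgeR 52 rose, 20 fell and 25 did not pass, which is 74.2% called against 66.4% of all tested genes, and their median log2 fold change was 0.27. The shares to set beside the counts of each list are the 33.8% of all tested genes that rose and the 32.7% that fell. Of the 90 genes of these lists that reached the count minimum in all 6 libraries, 47 rose and 20 fell, against 32% and 34.9% of all such genes. Interferon genes themselves had next to no counts. Of 21 ligand genes 20, IFNB1 and every listed IFNA gene among them, had 0 counts in all 6 libraries, and IFNL3 had 1 count. RNA counts cannot tell a silent gene from one missing from the genome of the line. Whether these genes are intact in K562 was not tested, so their 0 counts are no measure of induction. IFNG, the type II interferon, and IFNL1 and IFNL2, of type III, were among the genes at 0.

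The receptor chain was present. IFNAR1 had 91.6 ± 1.80 and 94.9 ± 2.85 CPM and did not pass (edgeR adjusted p = 0.353), though it did with total counts (0.00968), while IFNAR2 rose from 20.7 ± 3.06 to 26.3 ± 1.09 CPM. JAK1 rose from 105 ± 1.58 to 143 ± 7.86 CPM (log2 fold change 0.44). IRF2BP2, a corepressor, rose by 0.78 and NMI, the partner of IFI35, by 0.63 on the log2 scale. Of 7 tested receptor and kinase genes 2 rose and none fell, and 4 rose with total counts. Of 11 tested genes downstream of the sensors 3 rose and 4 fell, RIPK1 and IKBKG among the former (log2 fold changes 0.31 and 0.28). TRAF3 fell by 0.37 and the kinase TBK1 by 0.20, the latter call lost with total counts (edgeR adjusted p = 0.146) and without treated replicate 1 (0.0674), and with total counts 1 gene of this list fell. Without DMSO replicate 2 1 gene of this list rose, without treated replicate 1 2 fell, and against a minimum fold change of 1.2 none rose and 1 fell by edgeR.

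Among other sensors and nucleases 6 rose and 6 fell of 13 tested. IFI16, a nuclear DNA sensor, had 1.28, 1.07 and 0.908 CPM in DMSO and 6.30, 13.4 and 11.5 CPM in treated libraries, a rise of 3.27 on the log2 scale (SE 0.26, edgeR adjusted p = 4.97e-12). The helicases DHX9 and DDX41 fell by 0.51 and 0.32 on the log2 scale. EIF2AK2 (PKR), a kinase activated by double-stranded RNA, had 34.9 ± 1.27 and 39.3 ± 0.355 CPM (edgeR adjusted p = 0.0266), a call lost under 7 of 13 settings, DESeq2 among them (0.0512). MB21D1 (cGAS), the main cytosolic DNA sensor upstream of TMEM173, had 8 counts in DMSO and 5 in treated libraries in all.

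Of further interferon-stimulated genes, 51 listed and 36 tested, 25 rose and 4 fell, beside 33.8% and 32.7% of all tested genes. Of the 33 that reached the count minimum in all 6 libraries 22 rose and 4 fell, while APOL6, GBP2 and UBA7 reached it in all treated but not all DMSO libraries. APOL6, of the apolipoprotein L family, had 0.666, 1.23 and 0.499 CPM in DMSO and 17.1, 15.8 and 17.8 CPM in treated libraries, a rise of 4.43 on the log2 scale (SE 0.20, edgeR adjusted p = 2.81e-17). RBCK1, a part of the linear ubiquitin ligase, rose from 30.5 ± 0.455 to 111 ± 9.53 CPM. IFI30, a lysosomal thiol reductase, fell from 97.1 ± 4.66 to 29.5 ± 3.25 CPM and PNPT1 by 0.68 on the log2 scale. CXCL10, the chemokine often read as a sign of interferon action, had 1 count in all.

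Of 14 tested antigen presentation genes 9 rose and 2 fell, beside 33.8% and 32.7% of all tested genes, and of the 11 that reached the count minimum in all 6 libraries 7 rose and 2 fell. With total counts, and without DMSO replicate 1, DMSO replicate 2 or treated replicate 3, 1 fell. HLA-E rose from 34.0 ± 3.87 to 57.3 ± 2.77 CPM and ERAP1, which trims peptides, from 45.9 ± 0.989 to 64.7 ± 3.20 CPM. PSMB10 fell by 0.43 on the log2 scale, and B2M by 0.09, a call lost with total counts (edgeR adjusted p = 0.985) and 5 other settings. Among brakes on the pathway 4 rose and 4 fell of 12. With total counts 1 fell, and without DMSO replicate 2 or DMSO replicate 3 2 fell. SOCS1 rose from 6.10 ± 1.10 to 24.1 ± 1.33 CPM and TNFAIP3 by 2.15 on the log2 scale, while SOCS3 fell from 63.6 ± 0.206 to 39.1 ± 1.65 CPM and PTPN1 by 0.13, the last not passing with total counts (edgeR adjusted p = 0.390).

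**Figure D5:**
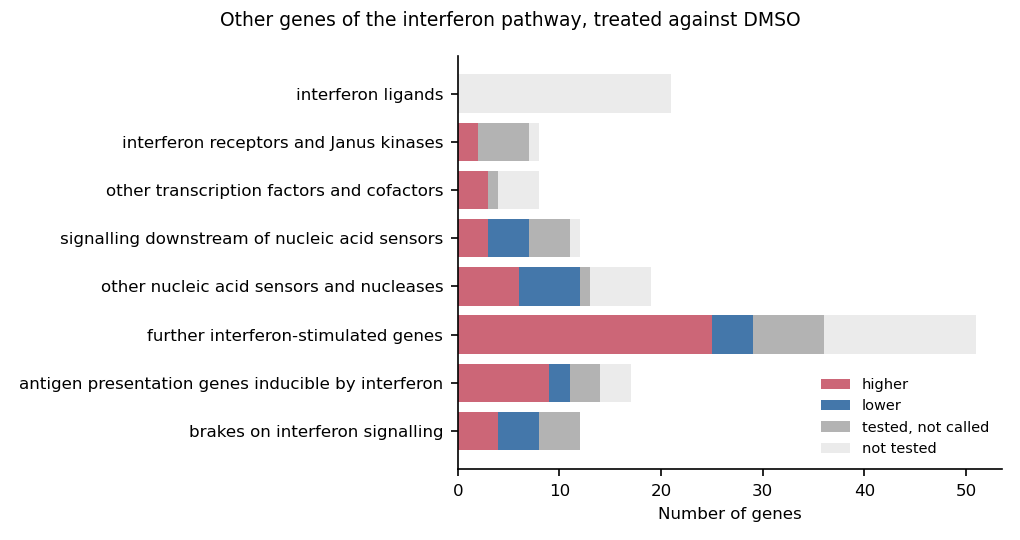
Number of genes in each of 8 lists of the interferon pathway that rose, fell, were tested without passing or were not tested, treated against DMSO. The list of further interferon-stimulated genes holds 25 of the 52 risers, and none of the 21 ligand genes was tested.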

How the data were processed

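RNA-seq of K562 cells was used from 6 libraries, 3 with DMSO and 3 with 3FM-dC plus THU. Directional mRNA libraries were made, per the labels' protocols, and the deposited files hold raw counts per gene symbol by the authors, with no normalization. The submitters' processing notes list STAR, Cufflinks, DESeq2 and the build hg19, with no versions or roles, and the strand setting of the counting is not given in the sources used here. Close copies (IFITM1 to IFITM3, APOBEC3 and HLA genes) and overlapping genes can share reads, so their values are uncertain. The 5 totals that name no gene were left out, 10.9 to 13.1% of a library having no feature and 2.27 to 2.38% being ambiguous. The authors' deposited comparison table was not used, since it does not name its groups.

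Counts were tested with edgeR 4.0.16 in R 4.3.3 (TMM, filterByExpr with a minimum count of 10, quasi-likelihood test, adjusted p threshold 0.05 over 12339 genes). SE is the absolute log2 fold change divided by the square root of F. The scripts were tested on simulated data. DESeq2 1.42.0, total counts, RLE size factors, other filters, a minimum fold change of 1.2, a replicate block and leaving out each library were alternatives. Replicate libraries differed by more than sampling noise (chi-square per degree of freedom 2.38 to 6.22). Exonic lengths came from GENCODE 29 (all 44 members matched) and promoters from RefSeq GRCh38.p14, of which only names and sequences, no positions, were joined to the counts.

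The members and lists were chosen with earlier results of these data known. Named in full are members called with an absolute log2 fold change of at least 0.5 and a mean of at least 1 CPM, the 5 most abundant members, from each other list the 2 called genes with the smallest p in each direction, and TMEM173, MAVS, DDX58, IFIH1, IFNB1, IFNAR1, IFNAR2, MB21D1 and EIF2AK2. Other genes are named for their place in the pathway. Some genes that this rule or the lists take in are not reported here by name.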

Additional observations from a re-analysis of the deposited data

How the results depend on the processing

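Of the 28 tested members, 16 kept their call and direction under all of the up to 13 alternatives that could be run for each, 14 of them called, and no called member changed direction. The sign changed for some members that were not called and had log2 fold changes near 0. With total counts it changed for IRF2 (0.031), IFITM3 (0.018) and APOBEC3G (0.075), and for APOBEC3G also with a filter at 5 CPM (0.027). Leaving out each library gave IRF2 from -0.13 to 0.026, IFITM2 from -9e-04 to 0.065, and APOBEC3G from -0.18 to 0.060. Of 70 other tested pathway genes, 11 changed sign under some alternative, and 0 of these 11 were called by edgeR. MAVS, PML, IFI6, ADAR and SP100 lost their call under at least 1 alternative, and DDX58, IRF3 and ISG15 gained one. Against a minimum fold change of 1.2, 4765 genes were called, 2641 higher and 2124 lower, with 11 members higher and 4 lower, PML losing its call at an edgeR adjusted p of 0.0525, and 43 rather than 72 genes of the pathway lists called. With a filter at 5 CPM, 9 of 20 tested members were higher and their median log2 fold change was 0.10. With no filter beyond 1 count the median was 0.67 over 40 members. Both filters changed which members were tested. Fitted values also moved, for MAVS from 0.23 to 0.28 at 5 CPM and to 0.22 with no filter beyond 1 count. Leaving out each library gave a member median from 0.27 (without treated replicate 2) to 0.53 (without DMSO replicate 1), with 0.52 without DMSO replicate 3, and 13 to 14 members higher and 5 to 6 lower. DESeq2 called 13 members higher and 5 lower. Replicate numbers are shared by the titles only, and deviations of same-numbered libraries correlated at 0.000108, -0.00322 and -0.0731 across genes. The fit with the replicate number as a block called 4091 genes higher and 3959 lower, and 13 members higher and 5 lower, ADAR losing its call. With 3 libraries a group, the weakest tested members rest on few counts, and for genes at 0 a level up to the limit of 3 counts was not detectable at this depth.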

Other observations

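Several interferon-stimulated genes outside the member list had counts too low for the test. AIM2, a sensor of cytosolic DNA, had 0, 0 and 1 counts in DMSO and 8, 21 and 9 in treated libraries. CCL5, a chemokine, had 1, 2 and 2 counts in DMSO and 15, 17 and 4 in treated libraries. TNFSF10 (TRAIL), a death ligand, had 0, 3 and 1 counts in DMSO and 7, 10 and 15 in treated libraries. SAMD9L, an antiviral and growth-restricting protein, had 2, 1 and 4 counts in DMSO and 13, 10 and 10 in treated libraries. DDX60, a helicase, had 1, 0 and 0 counts in DMSO and 11, 1 and 11 in treated libraries. For the first 4 of these genes every treated library lay above every DMSO library, and for DDX60 1 treated library matched a DMSO library. These genes were chosen after their values were seen and carry no test.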
